A study of Mus musculus with 21 samples.

Results

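The SLC16A1 clones of mouse embryonic stem cells (ESCs) were compared with the line chr8A in 2 culture conditions, SL and SL2i, to find the genes on which the effect of the clones depended on the condition. All 15 libraries of the SLC16A1 experiment were used, of 21 in the series. Cells were kept in serum with leukemia inhibitory factor (LIF) for SL, and for SL2i also with inhibitors of GSK3B and MEK, per the labels. All were then cultured for 48 h in a DMEM and NB mixture with 10% dialyzed serum and 0.2 mM pyruvate, and whether the inhibitors were still present then is not stated. Each of chr8A, clone 1 and clone 2 had 3 libraries in SL and 2 in SL2i. The line chr8A was read as the control, and the sources used here do not state how the clones were made. All libraries of a clone come from 1 clonal line, so p-values cover only library-to-library spread, part of which can be technical.

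Slc16a1 encodes the monocarboxylate transporter MCT1, which moves pyruvate, lactate and other monocarboxylates with a proton across the plasma membrane. MEK is the kinase upstream of ERK, the kinase through which FGF4 primes ESCs for differentiation, and its inhibition lowers ERK target genes and raises naive pluripotency genes. GSK3B marks beta-catenin for degradation, so its inhibition raises Wnt target genes. ATF4 is the transcription factor of the amino acid response and raises genes of amino acid uptake, serine synthesis and tRNA charging when translation is slowed.

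The interaction is the difference between clones and chr8A in SL2i minus the same difference in SL, with both clones weighted equally, as a log2 fold change ± standard error. It equals the response to the medium in the clones minus that in chr8A. A positive interaction therefore means that the clones stood higher relative to chr8A in SL2i than they did in SL. Levels are CPM (read counts scaled to a common total) with a scaling factor per library. A gene was called at an adjusted p under 0.05 over the 17178 genes tested, of 40838 in the table.

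Total counts were 15802072 to 30145771 in the 9 SL libraries and 9784408 to 10908368 in the 6 SL2i libraries, so depth moved with the medium. The 10 core pluripotency markers of the marker list summed to 3365 to 4059 CPM over the 15 libraries, and none was at 0 in any group. The 16 fibroblast markers, which would mark feeder cells, summed to 103 to 127 CPM in SL and 28.1 to 35.5 CPM in SL2i. In SL2i chr8A, 6 of the 16 were at 0, among them Col3a1, Dcn and Postn.

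Slc16a1 was lower in the clones in both media. In SL it was at 195, 201 and 198 CPM in chr8A, 168, 182 and 162 in clone 1 and 92.8, 91.4 and 96.5 in clone 2. In SL2i the levels were 157 and 167 CPM in chr8A, 122 and 123 in clone 1 and 78.7 and 78.5 in clone 2. Every clone library lay below every chr8A library of its medium. The mean clone effect was -0.65 ± 0.03 in SL and -0.72 ± 0.04 in SL2i. The interaction was -0.07 ± 0.05, with a 95% interval of -0.18 to 0.03 and an adjusted p of 0.355 by edgeR's quasi-likelihood test, so no difference between the media was called for the mean of the clones. Clone 1 alone had a called interaction of -0.18 ± 0.06 (95% interval -0.30 to -0.07, adjusted p = 0.0203), and clone 2 had 0.04 ± 0.06 (adjusted p = 0.759). The difference between the clones was 0.22 ± 0.07 (adjusted p = 0.099).

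The interaction was called for 3638 genes, 21.2% of those tested, of which 1641 (9.55%) were higher and 1997 (11.6%) lower. An unadjusted p under 0.05 was reached by 5420 genes. Of the called genes 551 were higher and 500 lower by at least 1.5-fold. The mean clone effect itself was called for 4536 genes (26.4%) in SL, 2376 higher (13.8%) and 2160 lower (12.6%). In SL2i it was called for 4482 genes (26.1%), 2079 higher (12.1%) and 2403 lower (14%). The median standard error was 0.0692 for the effect in SL, 0.122 in SL2i and 0.146 for the interaction. The effects in the 2 media share no library, but the interaction and both effects rest on the same chr8A libraries, only 2 of them in SL2i.

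The called genes were sorted by where the clone effect itself was called. In 504 genes (2.93% of those tested) it was called in both media with opposite signs. In 1763 (10.3%) it was called in SL2i and not in SL, in 781 (4.55%) in SL and not in SL2i, and in 369 (2.15%) in both media with the same sign. The other 221 genes were called in neither medium. A gene called in 1 medium may still have changed in the other: of the 1763 genes, 1420 had a 95% interval of the SL effect within 0.3 log2 of 0, as did 570 of the 781 for the SL2i effect. Conversely, 1990 genes called in SL and not in SL2i, and 954 called in SL2i and not in SL, had no called interaction.

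**Figure D1:**
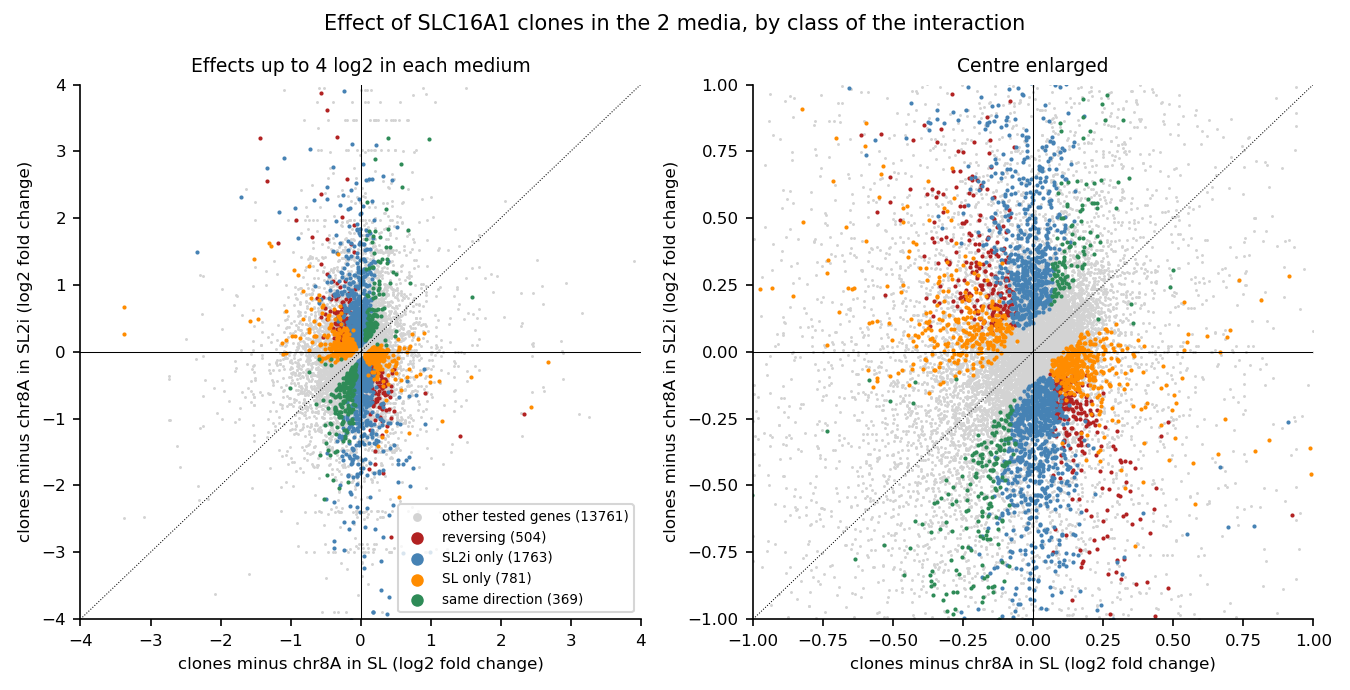
Each point is a gene, with the mean log2 fold change of the 2 clones against chr8A in SL on the x axis and in SL2i on the y axis, on both panels (the right panel enlarges the centre), and colour gives the class of the interaction. The 504 reversing genes lie to the upper left and lower right of the origin, and most have SL effects much smaller than 1 log2; 90 genes beyond 4 log2 in either medium are not drawn.

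Reversals were mostly small in SL and larger in SL2i. Of the 504 reversing genes, 260 were higher than chr8A in SL and lower in SL2i, and 244 were lower in SL and higher in SL2i. The median absolute effect was 0.157 log2 in SL and 0.259 in SL2i. Only 11 of the 504 differed by at least 1.5-fold in SL, while 105 did in SL2i. Each clone's own interaction was called with the sign of the mean for 474 of the 504. These genes were selected by the mean of the same interactions, so a high share was built in and is no separate evidence. For each clone by itself, 17% of all genes tested were called in clone 1 and 16.9% in clone 2. A call in both media with opposite signs in each clone taken alone was reached by 145 of the 504. At equal depth 315 of the 504 were still classed as reversing, and 345 were with both clones fitted as 1 group.

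For each class, genes were picked among those with at least 3 log2 CPM on average and 20 reads in each medium. A call of the same sign in each clone was also required, so rarer genes with larger interactions are left out. List members and other genes named below did not have to pass these limits, and some were not called in each clone. Of the reversing genes that passed, those lower in SL and higher in SL2i with the largest interactions included Car4, Igf2, Krt7, Myl9, Cryab and Krt19. Car4, a carbonic anhydrase anchored to the outer membrane, was at 80.3, 77.1 and 77.3 CPM in chr8A in SL and at 67.6 to 77.6 in the clones. In SL2i it had no read in chr8A and 41 reads over the 4 clone libraries, which was at least 6.95-fold higher when set against 3 reads over the chr8A group. Its effect in SL was -0.12 ± 0.04 (adjusted p = 0.00729), and the clone and chr8A libraries overlapped there. In clone 1 this SL effect was -0.08 ± 0.04 and not called, and in clone 2 it was -0.17 ± 0.04 and called. Without the first SL chr8A library, Car4 was classed as called in SL2i only. Krt7, a simple-epithelium keratin, fell by 0.48 log2 in SL, from 29.7 to 33.4 CPM in chr8A to between 17.96 and 27.02 in the clones. In SL2i it had 2 reads in chr8A and 53 in the clones, a ratio of 13.5 with a 95% counting interval of 3.55 to 114. Myl9, a regulatory light chain of myosin, was at 41.96 to 47.6 CPM in chr8A and 37.9 to 40.8 in the clones in SL, and had 3 and 37 reads in SL2i, a ratio of 6.28 (1.99 to 31.8). These intervals and the bound cover counting error only.

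Igf2, the imprinted gene of insulin-like growth factor 2, was in SL at 237, 212 and 235 CPM in chr8A, 189, 168 and 179.6 for clone 1 and 129.7, 139.7 and 127 for clone 2. The levels in SL2i were 2.71 and 3.26 CPM in chr8A, 38.5 and 45.3 in clone 1 and 45.1 and 45.7 in clone 2. All clone libraries were below chr8A in SL and above it in SL2i, and the interaction was 4.43 ± 0.16 (adjusted p = 4.14e-18). Igf2 shares 61.9% of its 30-base words and 64.5% of its exon length with other annotated genes, so its counts are uncertain. Cryab, a small heat shock protein, had a mean clone effect of -0.27 log2 in SL, where clone and chr8A libraries overlapped. This effect was -0.01 ± 0.08 in clone 1 and -0.52 ± 0.08 in clone 2. In SL2i Cryab rose from 3.29 and 2.47 CPM in chr8A to between 9.40 and 13.9 in the clones (interaction 2.28 ± 0.20). With both clones fitted as 1 group, Cryab was called in SL2i only. Krt19, another simple-epithelium keratin, rose in SL2i from 0.870 and 0.790 CPM in chr8A to between 2.64 and 3.41 in the clones. Its mean SL effect was only -0.10 ± 0.03, with 0.08 ± 0.04 in clone 1 and -0.28 ± 0.04 in clone 2. Clone and chr8A libraries overlapped there, and with both clones fitted as 1 group the interaction was not called (adjusted p = 0.0899).

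By the same rule, the reversing genes named as higher in SL and lower in SL2i were Duxbl1, Armcx2, Rpl10l, Cd109, Sp5 and Nes. Nes encodes nestin, an intermediate filament of neural progenitors. Of the 16 tested neuroectoderm genes Nes was the 1 called lower (6.25%), and 3 (18.8%), among them Tubb3 and Sox21, were called higher. The shares of all genes were 11.6% and 9.55%. In SL Nes was at 229.5, 216 and 215 CPM in chr8A and 274 to 291 in the clones. In SL2i it was at 29.1 and 31.6 in chr8A and 11.9 to 15.6 in the clones. The groups did not overlap in either medium, and the interaction was -1.49 ± 0.09 (adjusted p = 8.27e-29). Sp5, a Wnt-induced transcription factor that represses its own pathway, rose in SL from 2.30, 2.56 and 3.39 CPM in chr8A to between 3.92 and 7.35 in the clones. In SL2i Sp5 was higher throughout, at 26.6 and 27.7 CPM in chr8A, and lower in the clones, at 16.7 to 18.6. Its interaction was -1.53 ± 0.17, and it was 1 of the 11 genes past 1.5-fold in SL. Cd109, a membrane-anchored TGF-beta co-receptor, was at 15.8 to 16.5 CPM in chr8A and 18.7 to 22.1 in the clones in SL, against 5.99 and 7.11 in chr8A and 2.32 to 3.46 in the clones in SL2i (interaction -1.56 ± 0.20). Armcx2, an X-linked armadillo-repeat gene, differed little in SL (0.12 ± 0.04) and fell in SL2i from 13.6 and 17.97 CPM in chr8A to between 3.84 and 5.59 in the clones. Its SL effect in clone 1 was 0.09 ± 0.04 and not called. Armcx2 was classed as reversing in 19 of 24 alternative analyses and as called in SL2i only in the others.

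Rpl10l, a testis-expressed retrocopy of a ribosomal protein gene, rose with the medium in every line but less in the clones. It was at 10.3 to 10.6 CPM in chr8A and 10.8 to 13.3 in the clones in SL, and at 67.7 and 67.8 in chr8A and 19.7 to 28.4 in the clones in SL2i. The SL effect in clone 1 was 0.10 ± 0.09 and not called. Rpl10l was classed as reversing in 15 of 23 alternative analyses and as called in SL2i only in the others. Duxbl1, a homeobox gene, had an interaction of -1.88 ± 0.21. They share 24.5% and 96.2% of their 30-base words with other genes, so their counts are uncertain.

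The promoters of Car4 and Krt7 are shown because both genes switch sign between the media and have 1 promoter each in the table, and that of Gars is shown because it was the 1 reversing gene of the ATF4 list with the ATF4 motif. Each is the 250 bases before the annotated start, from RefSeq on GRCm38.p6, a build that precedes the GRCm39 of the counts, 5′ to 3′ on the gene's strand, and capitals mark a match to a searched motif. Car4 lies on the + strand at chr11:84957504-84957753, Krt7 on the + strand at chr15:101412153-101412402 and Gars on the + strand at chr6:55037751-55038000.
Car4: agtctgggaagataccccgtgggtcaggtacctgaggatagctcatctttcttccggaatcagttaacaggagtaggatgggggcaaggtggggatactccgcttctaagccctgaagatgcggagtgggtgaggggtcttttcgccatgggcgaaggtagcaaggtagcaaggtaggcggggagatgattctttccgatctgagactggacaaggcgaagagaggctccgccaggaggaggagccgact
Krt7: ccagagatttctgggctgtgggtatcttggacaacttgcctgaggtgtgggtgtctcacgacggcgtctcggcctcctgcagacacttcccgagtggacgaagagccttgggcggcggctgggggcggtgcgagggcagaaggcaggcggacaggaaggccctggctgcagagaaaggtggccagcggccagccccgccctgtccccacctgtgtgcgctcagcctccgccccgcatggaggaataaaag
Gars: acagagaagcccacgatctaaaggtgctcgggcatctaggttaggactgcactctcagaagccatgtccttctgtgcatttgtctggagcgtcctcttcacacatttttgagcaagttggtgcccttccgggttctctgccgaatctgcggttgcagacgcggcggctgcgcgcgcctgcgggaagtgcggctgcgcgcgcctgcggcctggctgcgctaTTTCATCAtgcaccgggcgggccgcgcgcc
The motifs searched on both strands, in 250 bases before to 50 after each start, were TGATGNAA (the C/EBP-ATF element that ATF4 binds), CACGTG (the E-box), TCACNCCAC (the sterol element of SREBP) and CTTTGA (the core of TCF and LEF sites). They were held by 3.97%, 7.15%, 1.24% and 16.0% of the 32817 promoters of full length in the table. No match was found for Car4 or Krt7. Igf2, which reversed with a larger interaction than Krt7, has 4 promoters in the table, which are not printed, and 1 of them holds CTTTGA. Gars has 1 match to TGATGNAA, on the opposite strand, 30 bases before the start. Of the 37 tested ATF4 list members 31 had a promoter in the table, and 10 of these held TGATGNAA; of the 11 reversing members 9 had a promoter, and 1 held it. By gene, 4.51% of all genes in the table held it. Gars, glycyl-tRNA synthetase, was at 626, 615 and 593 CPM in chr8A and 619 to 688 in the clones in SL, and at 409 and 439 in chr8A and 390.3 to 409 in the clones in SL2i. Its interaction of -0.18 ± 0.04 was not called without the second SL2i chr8A library (adjusted p = 0.0642), and Gars was classed as reversing in only 11 of 24 alternative analyses. A match is a description of the letters, not a bound site.

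Of the 34 gene lists described, the amino acid response genes had the largest share called lower. Of the 37 tested genes of the ATF4 list, 22 (59.5%) were called lower and 1 (2.70%) higher, against 11.6% and 9.55% of all genes tested. In SL 23 were higher in the clones and 2 lower, and in SL2i 3 were higher and 17 lower. Among all genes, 13.8% were higher and 12.6% lower in SL, and 12.1% and 14% in SL2i. The list's median effect was 0.11 in SL and -0.14 in SL2i, and its median interaction was -0.24, against -0.01 over all genes. By class, 11 reversed (10 of them lower in SL2i, and Ddit4 in the opposite direction), 7 were called in SL only and 5 in SL2i only. These classes held 2.93%, 4.55% and 10.3% of all genes.

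Atf4 itself was called in SL only. It was at 381, 405 and 373 CPM in chr8A and 427 to 449 in the clones in SL, and at 362 and 369 in chr8A and 331 to 357 in the clones in SL2i. The interaction was -0.26 ± 0.04 (adjusted p = 2.37e-07), and the SL2i effect of -0.08 ± 0.03 lay at an adjusted p of 0.0516. Chac1, a glutathione-degrading enzyme and ATF4 target, rose in SL from 29.1, 31.6 and 29.4 CPM in chr8A to between 36.5 and 42.7 in the clones. In SL2i it was at 7.15 and 8.79 CPM in chr8A and 5.07 to 7.87 in the clones, which overlap, and its interaction of -0.61 ± 0.17 was no longer called without the second SL2i chr8A library (adjusted p = 0.166).

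Some genes of amino acid uptake and serine synthesis reversed. Slc38a2, the amino acid transporter SNAT2, was in SL at 695, 683 and 682 CPM in chr8A, 752, 762 and 771 for clone 1 and 779, 788 and 781 for clone 2. Its SL2i levels were 341 and 332 CPM in chr8A, 255 and 255 in clone 1 and 242 and 238 in clone 2. Every clone library was above chr8A in SL and below it in SL2i, with effects of 0.17 ± 0.02 and -0.44 ± 0.03 and an interaction of -0.61 ± 0.04 (adjusted p = 1.07e-25). Psat1, the second enzyme of serine synthesis, showed the same order: 691 to 705 CPM in chr8A and 738 to 762 in the clones in SL, and 359.7 and 371 in chr8A and 265 to 304 in the clones in SL2i. Its interaction was -0.49 ± 0.04. Phgdh, the first enzyme of that pathway, fell in SL2i from 107 and 107 CPM in chr8A to between 65.3 and 70.002 in the clones (interaction -0.74 ± 0.06), but the groups overlapped in SL and 56.3% of its words are shared with other genes. It was classed as reversing in 13 of 23 alternative analyses and as called in SL2i only in the others.

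The mitochondrial one-carbon enzymes followed. Shmt2, which splits serine to glycine, was at 212, 225 and 202 CPM in chr8A and 227 to 242 in the clones in SL. In SL2i chr8A it was at 271 and 296 CPM, and the clones stayed at 218 to 239.8. The response to SL2i was 0.41 ± 0.04 in chr8A (adjusted p = 6.69e-15) and -0.01 ± 0.03 in the clones (adjusted p = 0.793), and their difference, the interaction, was -0.42 ± 0.05 (adjusted p = 1.91e-10). Mthfd2, the next enzyme of the pathway, had an interaction of -0.40 ± 0.06, and Aldh18a1, which starts proline synthesis, one of -0.59 ± 0.06.

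The direction was not shared by all one-carbon genes. Of the 20 tested genes of the serine and one-carbon list 11 (55.0%) were called lower and 2 (10.0%) higher, and 8 reversed. Among all genes these shares were 11.6%, 9.55% and 2.93%. The serine and one-carbon list shares members with the ATF4 list, among them Psat1 and Phgdh, so their counts are not independent. The 2 that were higher were Mthfd1, the cytosolic folate enzyme, and Gldc, the decarboxylase of the glycine cleavage system. Mthfd1 was at 445, 437 and 440.3 CPM in chr8A and 374 to 392 in the clones in SL, and at 404 and 412 in chr8A and 443 to 455 in the clones in SL2i. The groups did not overlap in either medium, and the interaction was 0.35 ± 0.04. Gldc had an interaction of 0.36 ± 0.04, again with separate groups in both media. In the ATF4 list the 1 higher gene was Ddit4, an inhibitor of mTORC1 that other stress pathways also induce, at 0.44 ± 0.08.

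**Figure D2:**
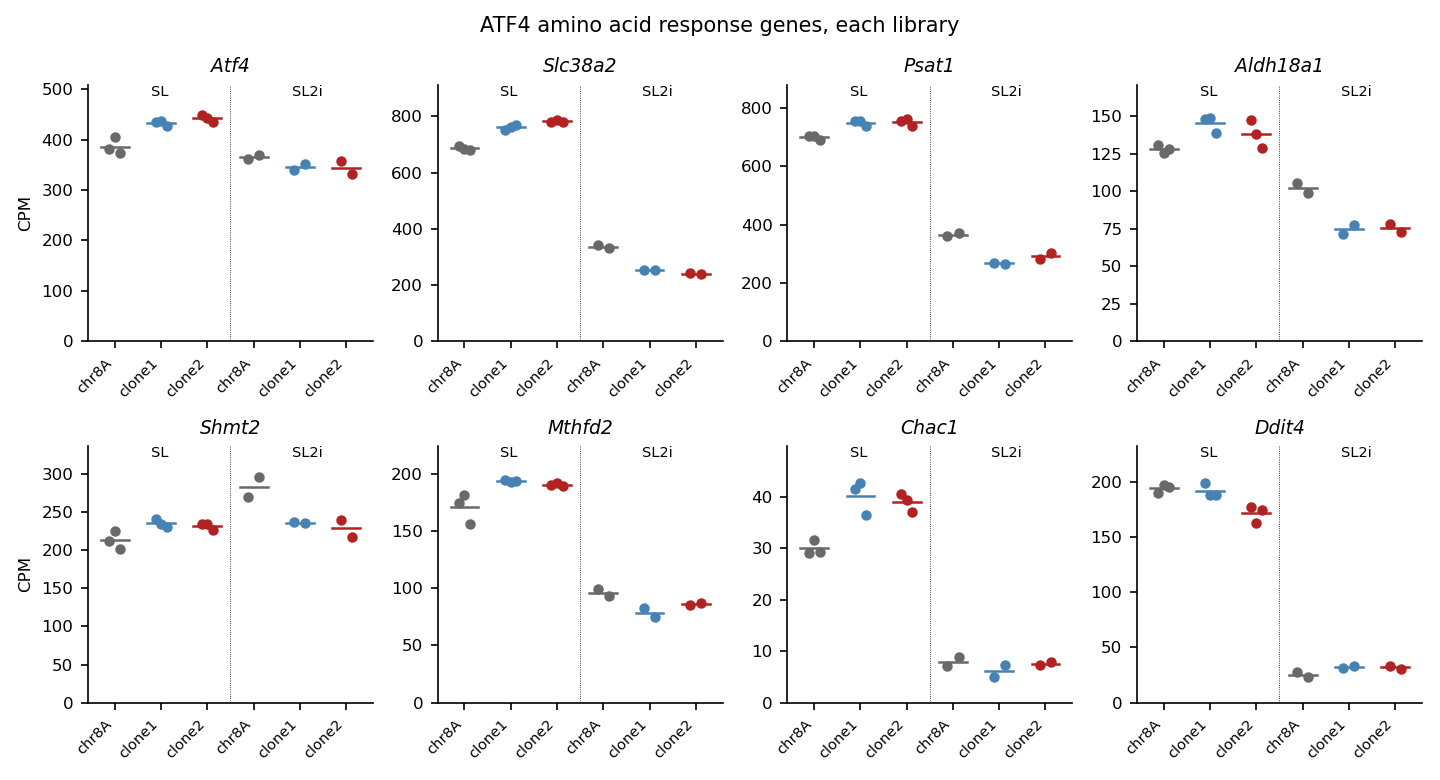
CPM of 8 genes of the ATF4 list in each library (points) with the group mean (line), for chr8A, clone 1 and clone 2 in SL (3 libraries each) and SL2i (2 each), on axes that start at 0. Slc38a2, Psat1, Shmt2 and Mthfd2 have every clone library above chr8A in SL and below it in SL2i, and Ddit4 has clone libraries above chr8A in SL2i.

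Of the 22 tested genes of the ERK list 12 (54.5%) were called higher for the interaction and 1 (4.55%) lower, against 9.55% and 11.6% of all genes, with a median interaction of 0.22. The clones already differed in SL, where 12 of the 22 were called higher and 3 lower, and in SL2i 13 were higher and 1 lower. The shares of all genes were 13.8% and 12.6% in SL, and 12.1% and 14% in SL2i. Spry4, a feedback inhibitor induced by ERK, was at 139.7, 138 and 137 CPM in chr8A and 156 to 167 in the clones in SL. In SL2i the levels were 3.77 and 4.64 CPM in chr8A, 34.7 and 39.2 in clone 1 and 24.2 and 28.2 in clone 2. It thus stayed far under its SL level in every SL2i library, and the clones lay above chr8A in both media, with an interaction of 2.68 ± 0.13 (adjusted p = 6.53e-35). The response to SL2i was -5.04 ± 0.09 in chr8A and -2.36 ± 0.04 in the clones.

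Etv4, an ETS transcription factor induced by ERK, was at 9.66 and 11.1 CPM in chr8A and 25.9 to 38.7 in the clones in SL2i, and its interaction was 1.48 ± 0.11. Dusp6, the phosphatase that inactivates ERK, was at 6.18 and 5.83 CPM in chr8A and 13.3 to 16.2 in the clones, with an interaction of 1.11 ± 0.13. Myc was at 7.63 and 9.18 CPM in chr8A and 17.5 to 24.9 in the clones, with 0.96 ± 0.12. These genes were also slightly higher in the clones in SL, by 0.16 ± 0.04 for Etv4, 0.16 ± 0.03 for Dusp6 and 0.37 ± 0.04 for Myc. The 1 lower gene was Ccnd1, cyclin D1, which rose in the clones in SL (0.30 ± 0.03) and not detectably in SL2i (-0.03 ± 0.04, 95% interval -0.12 to 0.06). Exons of Ccnd1 overlap other genes over 23.4% of their length.

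The keratins Krt18 and Krt8 also fell less with SL2i in the clones than in chr8A. Krt18 was at 304 to 318 CPM in chr8A and 239 to 357 in the clones in SL, which overlap, and in SL2i at 3.96 and 4.84 in chr8A and 23.3 to 26.7 in the clones. Its interaction was 2.59 ± 0.15 (12.4% of its 30-base words are shared with other genes). Its partner Krt8 was at 14.1 and 15.8 CPM in chr8A and 38.3 to 39.6 in the clones, with an interaction of 1.35 ± 0.09 (32.9% shared). Of the 18 tested trophoblast and epithelial genes 8 (44.4%) were called higher and 2 (11.1%) lower, against 9.55% and 11.6% of all genes. The 2 lower genes were Cdh1, E-cadherin, which reversed at -0.51 ± 0.04, and Cldn6, a tight junction claudin. The summed level of the whole list of 20 did not follow the keratins: in SL2i it was 936 to 973 CPM in chr8A, 855 to 879.6 in clone 1 and 859 to 868 in clone 2. Of this list only Plac1 was at 0 in SL2i chr8A. Whether other cell types in the SL2i cultures had a part in the keratin levels was not tested.

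**Figure D3:**
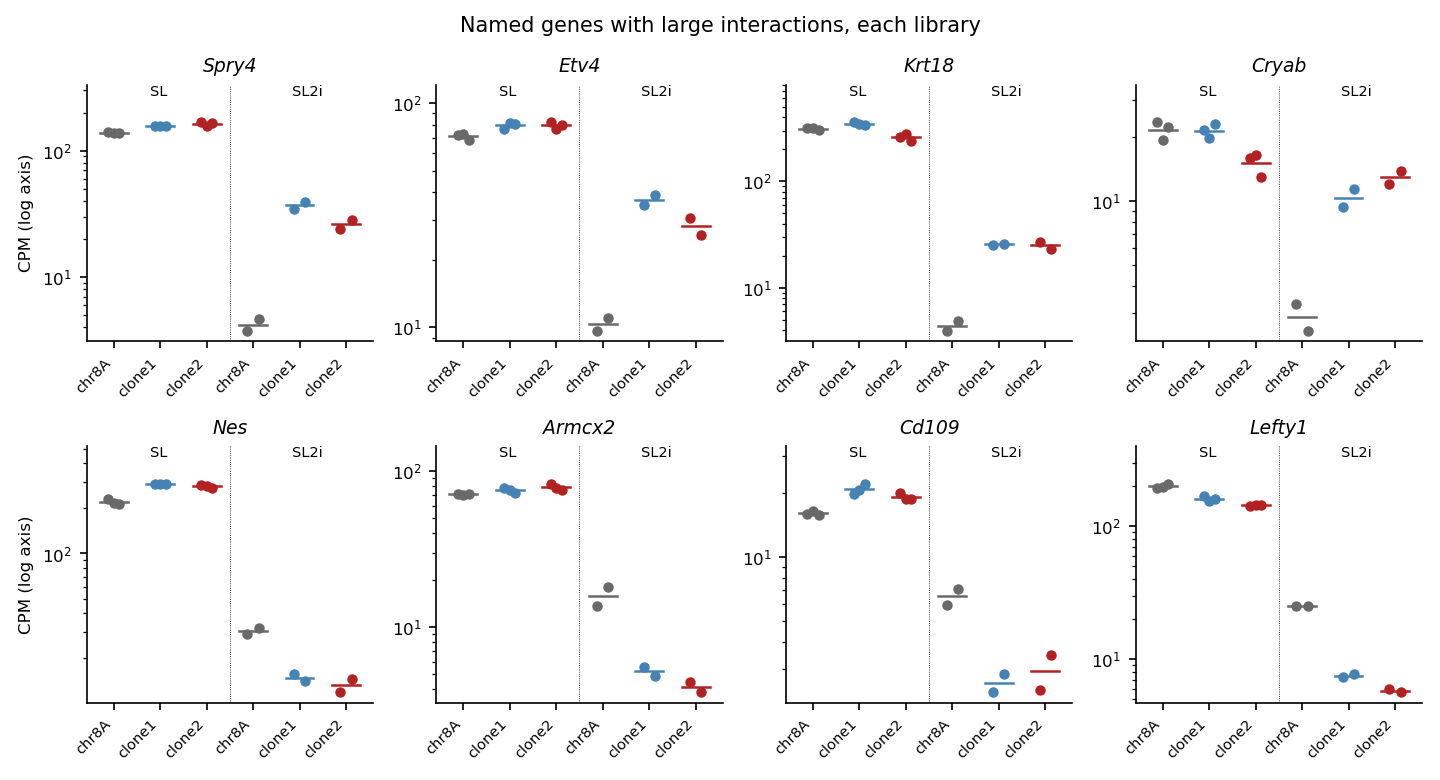
CPM on a log axis of 8 named genes in each library (points) with the group mean (line), for chr8A, clone 1 and clone 2 in SL (3 libraries each) and SL2i (2 each). Spry4, Etv4, Krt18 and Cryab have every SL2i clone library above chr8A, and Nes, Armcx2, Cd109 and Lefty1 have every SL2i clone library below it.

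The class called in SL2i only had a median absolute effect of 0.0499 log2 in SL and 0.373 in SL2i, and 26 of its genes differed by at least 1.5-fold in SL without a call. Of its 1763 genes 794 were higher and 969 lower in the clones, 563 of them by at least 1.5-fold, and 61 were under 1 CPM in every SL group. Leaving out the first SL2i chr8A library reduced the class to 1149 genes. Slc39a14, a zinc and manganese importer, was at 179.8 to 188 CPM in chr8A and 177 to 198 in the clones in SL. In SL2i it was at 5.02 and 5.23 CPM in chr8A, 23.2 and 27.7 in clone 1 and 19.11 and 23.05 in clone 2 (interaction 2.14 ± 0.12). Slc40a1, the iron exporter ferroportin, rose in SL2i from 0.676 and 0.790 CPM in chr8A to between 2.57 and 4.01 in the clones. Dab2, an endocytic adaptor, rose from 1.35 and 1.28 CPM in chr8A to between 4.26 and 7.39 in the clones. Its small SL effect of -0.19 ± 0.08 lay near the threshold, and Dab2 kept this class in only 11 of 24 alternative analyses and reversed in the others.

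Among the genes of this class that were lower were both partners of the Ellis-van Creveld complex, a regulator of Hedgehog signaling at the cilium. Evc fell in SL2i from 1.74 and 1.68 CPM in chr8A to between 0.288 and 0.780 in the clones, and Evc2 from 3.19 and 3.46 in chr8A to between 0.864 and 1.69 in the clones, with interactions of -1.80 ± 0.41 and -1.52 ± 0.29. The 2 genes are neighbours, and their levels in SL were 28.8 to 32.6 and 31.9 to 35.6 CPM in chr8A, overlapping those of the clones. Dtna, a dystrophin-associated protein, fell from 3.87 and 2.57 CPM in chr8A to between 0.683 and 1.44 in the clones. Mdfi, an inhibitor of myogenic factors, fell from 5.99 and 4.84 CPM in chr8A to between 1.39 and 2.43 in the clones. Hdx, a homeobox gene, had an interaction of -1.55 ± 0.30, with 28.9% of its exon length overlapping other genes.

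In the class called in SL only, 442 of the 781 genes were higher and 339 lower in the SL clones, and 14 were under 1 CPM in every SL2i group. Cdh2, N-cadherin, was at 11.9, 12.7 and 13.6 CPM in chr8A and 20.97 to 23.97 in the clones in SL, without overlap. For SL2i the values were 10.5 and 9.28 in chr8A and 7.01 to 9.29 in the clones. The interaction was -1.17 ± 0.16 and the SL2i effect -0.33 ± 0.14 (adjusted p = 0.0741). Hivep2, Tspan6, Nbea and Sall3 had interactions from -0.89 to -0.71 with higher levels in the SL clones. S100a13, a calcium-binding export protein, was at 6.26, 5.82 and 6.73 CPM in chr8A and 3.04 to 5.40 in the clones in SL, and at 23.3 and 19.6 in chr8A and 22.8 to 30.3 in the clones in SL2i (interaction 0.88 ± 0.16). Aldh1b1, a mitochondrial aldehyde dehydrogenase, fell in SL from 11.5 to 12.2 CPM in chr8A to between 6.61 and 9.31 in the clones and had an SL2i effect of 0.11 ± 0.13. Mmrn2, St3gal5 and Fam214a had interactions of 0.77 ± 0.16, 0.64 ± 0.17 and 0.61 ± 0.16. The call of St3gal5 was lost without the first SL2i chr8A library, and those of Fam214a, Hivep2 and Nbea without the second. Over the alternatives their interactions ran from 0.42 to 0.92 for St3gal5 and 0.48 to 0.77 for Fam214a. Those of Hivep2 ran from -1.03 to -0.76 and those of Nbea from -1.17 to -0.61.

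In 369 genes the clone effect had the same sign in both media but a different size, larger in SL2i in 355 and larger in SL in 14. Rhox5, an X-linked homeobox gene silenced by DNA methylation in many tissues, was at 16.99, 16.4 and 19.7 CPM in chr8A and 21.1 to 26.4 in the clones in SL. Its SL2i levels were 14.9 and 13.5 CPM in chr8A, 126 and 115 in clone 1 and 147 and 136 in clone 2. The response to SL2i was -0.32 ± 0.11 in chr8A (adjusted p = 0.00675) and 2.48 ± 0.05 in the clones, and the interaction was 2.80 ± 0.11 (adjusted p = 2.81e-35). Id3, a BMP target and inhibitor of bHLH factors, likewise fell with SL2i in chr8A and rose in the clones, with 6.57 and 7.603 CPM in chr8A and 28.7 to 34.6 in the clones in SL2i (interaction 1.77 ± 0.14). Bmp4 itself, called in SL2i only, was at 10.3 and 12.5 CPM in chr8A and 20.4 to 26.9 in the clones. Thbs1, the matrix protein thrombospondin 1, was at 0.676 and 0.494 CPM in chr8A and 2.53 to 3.26 in the clones in SL2i, and was not called with both clones fitted as 1 group (adjusted p = 0.126).

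Lower in both media, and more so in SL2i, were Lefty1, a Nodal antagonist, Col9a2, Cspg4b and Tbc1d9. Lefty1 was at 193, 197 and 207 CPM in chr8A and 140.4 to 167 in the clones in SL, and at 25.3 and 24.98 in chr8A and 5.67 to 7.70 in the clones in SL2i. Its interaction was -1.53 ± 0.11, with 26.3% of its words shared. Its paralog Lefty2 had an interaction of -0.66 ± 0.05 (18.7% shared). Cspg4b was at 65.9 and 66.2 CPM in SL2i chr8A and 16.5 to 18.3 in the clones (interaction -1.77 ± 0.09), and its shared sequence was not assessed. Of the 13 tested Nodal and activin genes 6 (46.2%) were called lower and 2 (15.4%) higher, against 11.6% and 9.55% of all genes.

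Naive pluripotency genes moved in both directions, and several reversed. Of the 20 tested 8 (40.0%) were called higher and 3 (15%) lower, and 5 reversed, against 9.55%, 11.6% and 2.93% of all genes. In SL 11 of the 20 were lower in the clones and 2 higher, and in SL2i 9 were higher and 7 lower. Among all genes, 12.6% were lower and 13.8% higher in SL, and 12.1% were higher and 14% lower in SL2i. Esrrb, a nuclear receptor of the naive network, was at 277, 293 and 275 CPM in chr8A and 227 to 266 in the clones in SL, and at 837 and 843 in chr8A and 1010.1 to 1099 in the clones in SL2i. The groups were separate in both media, and the interaction was 0.53 ± 0.04 (adjusted p = 3.1e-21). Tbx3, a T-box factor of the same network, was at 18.4, 16.1 and 17.1 CPM in chr8A and 12.8 to 14.4 in the clones in SL, and at 259.8 and 308 in chr8A and 408 to 452 in the clones in SL2i (interaction 0.91 ± 0.08). Tfcp2l1 and Zfp57, a protector of imprints, had interactions of 0.47 ± 0.04 and 0.48 ± 0.04. Lower were Fgf4 (-0.48 ± 0.04), Dppa3 (-0.96 ± 0.10, 30.4% shared) and Tdgf1.

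Of the 10 core pluripotency genes 6 were called higher and 1 lower, with small sizes apart from Utf1, a chromatin-bound ESC factor. Utf1 was at 79.05 and 92.2 CPM in SL2i chr8A and 143 to 161 in the clones, with an interaction of 0.73 ± 0.05. The 1 lower gene was Pou5f1, at -0.12 ± 0.04 (adjusted p = 0.0107). Its call was lost without the third SL chr8A library, the first SL2i chr8A library or the second SL2i clone 1 library, and with both clones as 1 group. Of the 18 formative and primed genes 8 (44.4%) were called lower and 2 (11.1%) higher. Of the 18, 17 were called higher in the SL clones and none lower, and in SL2i 5 were higher and 3 lower. Among all genes, 9.55% were higher and 11.6% lower for the interaction, 13.8% and 12.6% in SL, and 12.1% and 14% in SL2i. Otx2, a formative transcription factor, was at 29.7 to 33.2 CPM in chr8A and 37.3 to 52.995 in the clones in SL, and at 5.31 and 4.44 in chr8A and 3.94 to 4.88 in the clones in SL2i. Its interaction of -0.66 ± 0.20 was not called without the first SL2i chr8A library (adjusted p = 0.2) or with both clones as 1 group (adjusted p = 0.25). Of the 15 tested Wnt targets 4 (26.7%) were called lower and none higher: Sp5, Tnfrsf19, Lef1 and Axin2. Lef1 rose by 1.60 ± 0.07 in SL and 0.82 ± 0.16 in SL2i, and its interaction of -0.78 ± 0.18 was not called without the first SL2i chr8A library (adjusted p = 0.102).

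DNA methylation enzymes and genes that methylation silences were among the changed genes. Dnmt3l, the cofactor of the de novo methyltransferases, was at 463, 459 and 435 CPM in chr8A and 397 to 457 in the clones in SL. In SL2i it was at 158 and 157 CPM in chr8A and 296 to 313 in the clones, and its interaction was 1.02 ± 0.04 (adjusted p = 7.81e-38). The 2 de novo enzymes went apart: Dnmt3b had an interaction of 0.41 ± 0.04 (13.7% shared) and Dnmt3a one of -0.54 ± 0.06. In SL2i Dnmt3b was at 149 and 151 CPM in chr8A and 225 to 244 in the clones, while Dnmt3a was at 58.9 and 54.1 in chr8A and 42.4 to 46.8 in the clones. Of the 13 tested genes of the list 6 (46.2%) were called higher and 2 (15.4%) lower. Of the 26 tested germline genes 8 (30.8%) were called higher and 3 (11.5%) lower, and 6 reversed. Among all genes, 9.55% were called higher, 11.6% lower and 2.93% reversed. Rhox6, an X-linked homeobox gene of the germline, was at 5.47 to 5.57 CPM in chr8A and 3.28 to 4.47 in the clones in SL, and at 0.193 and 1.18 in chr8A and 3.17 to 3.76 in the clones in SL2i (interaction 2.93 ± 0.37, 23.9% shared). The Rhox6 interaction was 2.15 without the first SL2i chr8A library and 4.73 without the second.

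Imprinted genes held large interactions of both signs. Of the 36 tested 10 (27.8%) were called higher and 6 (16.7%) lower, against 9.55% and 11.6% of all genes. Peg10, a retrotransposon-derived paternally expressed gene, was at 1092, 997 and 1066 CPM in chr8A in SL and at 41.6 and 39.7 in SL2i. In the SL2i clones it was at 127 to 134 CPM, and the interaction was 1.60 ± 0.05 (adjusted p = 2.16e-44). Rian and Meg3, maternal noncoding RNAs of 1 imprinted cluster, moved the other way. Rian was at 222 and 197 CPM in SL2i chr8A and 81.4 to 105 in the clones, and Meg3 at 119.6 and 111 in chr8A and 52.7 to 56.9 in the clones, with interactions of -1.30 ± 0.05 and -1.03 ± 0.06. H19, which lies beside Igf2, was at 2.30, 2.29 and 2.41 CPM in chr8A and 0.473 to 1.32 in the clones in SL, and at 0.290 and 1.28 in chr8A and 6.23 to 8.64 in the clones in SL2i (interaction 4.64 ± 0.40). Its interaction was 3.94 without the first SL2i chr8A library and 6.06 without the second.

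Plagl1, an imprinted zinc finger gene, is a case where the mean of the clones describes neither. In SL it was at 42.3, 38.9 and 45.4 CPM in chr8A, 21.8, 22.3 and 24.9 in clone 1 and 0.310, 0.130 and 0.359 in clone 2. The levels in SL2i were 391 and 390.3 CPM in chr8A, 209 and 215 in clone 1 and 41.2 and 43.02 in clone 2. Fitted on the mean, the interaction was 2.05 ± 0.12, and with both clones as 1 group it was not called (adjusted p = 0.868). Its interaction was -0.01 ± 0.08 in clone 1 and 4.10 ± 0.21 in clone 2, and the difference between them was 4.11 ± 0.22 (adjusted p = 1.71e-29).

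Genes of pyruvate and lactate metabolism were more often called lower than higher, 9 (32.1%) against 3 (10.7%) of 28 tested. Over all genes 11.6% were called lower and 9.55% higher, and the difference between the list and all genes was not tested. Ldhb, the lactate dehydrogenase subunit that favours lactate oxidation, was at 136, 139 and 134 CPM in chr8A and 94.6 to 106 in the clones in SL. For SL2i the values were 318 and 291 CPM in chr8A and 93.1 to 110.0 in the clones, about the clones' SL level. The response to SL2i was 1.16 ± 0.04 in chr8A and 0.04 ± 0.03 in the clones, and the interaction was -1.12 ± 0.05 (adjusted p = 2.25e-36, 33.8% shared). Emb, embigin, a glycoprotein partner of monocarboxylate transporters, reversed: 251 to 269 CPM in chr8A and 292 to 342 in the clones in SL, against 23.9 and 24.6 in chr8A and 15.1 to 19.9 in the clones in SL2i (interaction -0.72 ± 0.09). Gpt2, which makes alanine from pyruvate, fell in SL2i from 83.1 and 93.2 CPM in chr8A to between 52.98 and 64.95 in the clones and had an interaction of -0.53 ± 0.07. Pck2, the mitochondrial PEP carboxykinase, rose with SL2i in chr8A (0.51 ± 0.05) and fell in the clones (-0.30 ± 0.04).

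In other metabolic lists the directions varied. Of the 18 tested fatty acid synthesis genes 8 (44.4%) were called lower and 1 (5.56%) higher. For this list and those that follow, the shares of all genes were 11.6% lower and 9.55% higher. Acss2, acetyl-CoA synthetase, was at -0.59 ± 0.14 and Fasn, fatty acid synthase, at -0.25 ± 0.04. The 1 higher gene, Elovl5, was at 0.16 ± 0.05 and was not called without the second SL2i chr8A library (adjusted p = 0.0677). Of the 70 nuclear respiratory chain subunits 17 (24.3%) were called lower and 3 (4.29%) higher, with Ndufs4 at -0.30 ± 0.06 and Atp5a1 at -0.27 ± 0.04. Glycolysis was even, with 6 of 25 in each direction. Of the 21 tested NRF2 and glutathione genes 7 (33.3%) were called higher and 2 (9.52%) lower. The selenoenzyme Gpx1 was at 232 and 217 CPM in SL2i chr8A and 458 to 539.8 in the clones, with an interaction of 0.74 ± 0.08. Of the 24 p53 targets 10 (41.7%) were called higher and 1 (4.17%) lower. Pmaip1, the proapoptotic protein NOXA, was at 82.4 and 79.5 CPM in SL2i chr8A and 138 to 152 in the clones (interaction 0.55 ± 0.05). The 1 lower p53 target was Cdkn1a, at -0.22 ± 0.05, not called at equal depth (adjusted p = 0.0582), with both clones as 1 group (0.128) or without the first SL2i chr8A library (0.122).

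**Figure D4:**
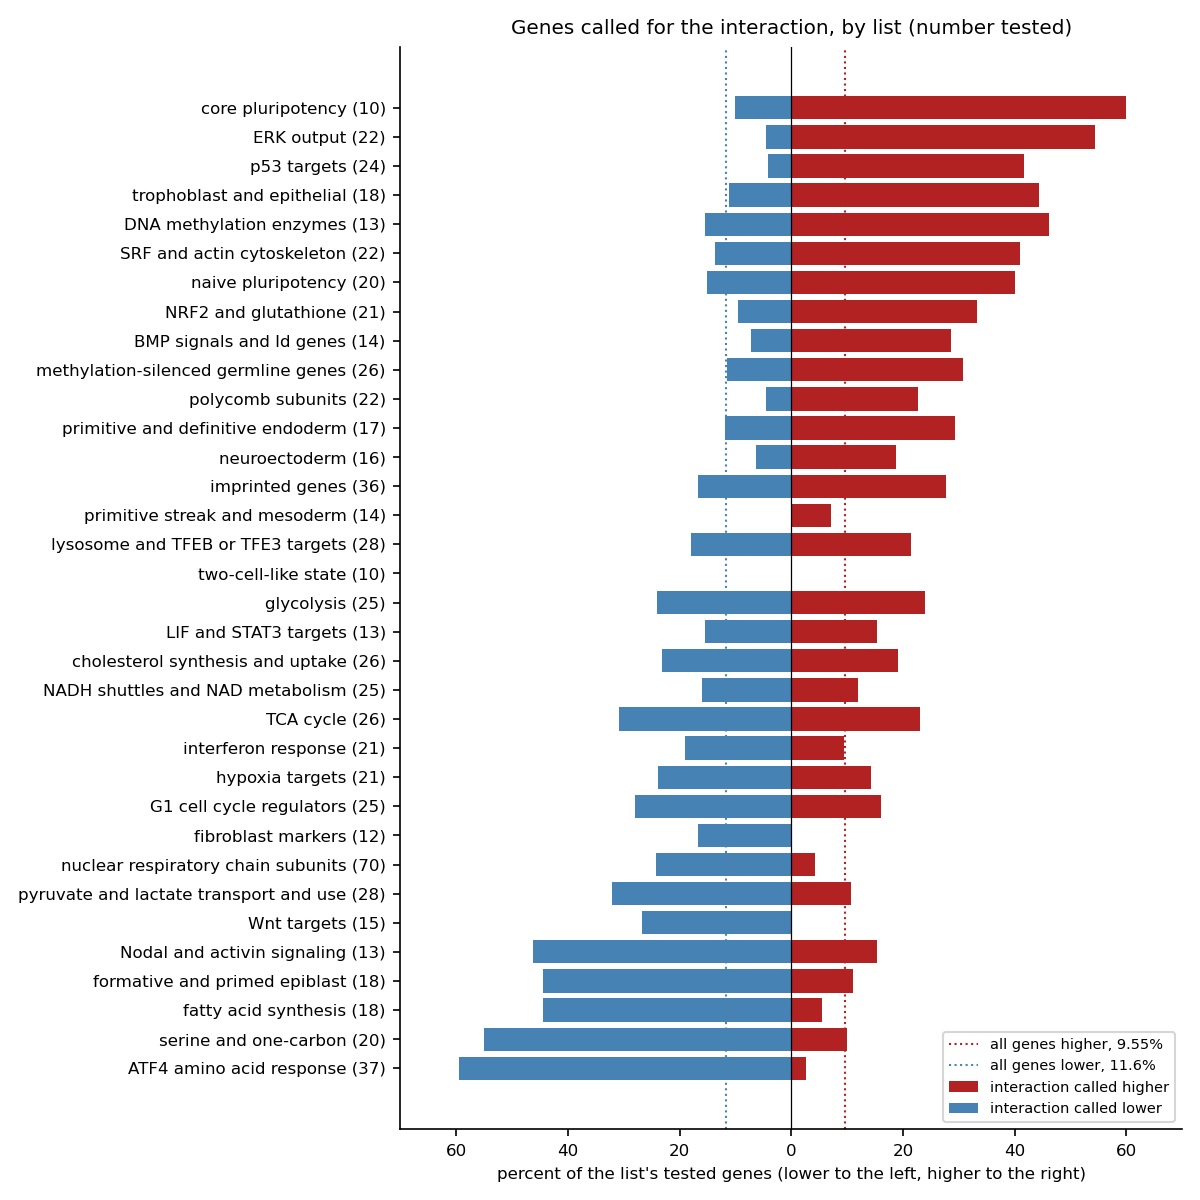
Percent of the tested genes of each of 34 lists called for the interaction, higher to the right and lower to the left, with dotted lines at the values over all genes (9.55% and 11.6%). The ATF4 and serine lists, which share members, reach furthest to the left, at 59.5% and 55.0%. The core pluripotency and ERK lists reach furthest to the right, at 60.0% and 54.5%. The two-cell-like list has no call among 10 tested genes.

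A difference between the clones' interactions, a comparison that holds no chr8A library, was called for 80 genes (0.466%), against 3638 for the mean. Slc38a2 had an interaction of -0.55 ± 0.05 in clone 1 and -0.68 ± 0.05 in clone 2, Nes -1.43 ± 0.10 and -1.54 ± 0.10, and Rhox5 2.75 ± 0.12 and 2.85 ± 0.12. Both clones' values share the chr8A libraries. Spry4 was among the genes that did differ, at 2.96 ± 0.13 in clone 1 and 2.40 ± 0.14 in clone 2 (adjusted p of the difference = 6.1e-05).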

How the data were processed

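Poly(A) RNA was sequenced from 15 libraries of 6 groups, with 3 libraries per group in SL and 2 in SL2i. The authors deposited raw read counts per gene for these libraries. Per the submitters' processing notes, the tools were DRAGEN 3.10, featureCounts and Subread, with the GRCm39 build. The kit was stranded per the labels, but the sources used here do not state whether the authors counted by strand. A separate table of the series, with a vector and an LbNOX group, was not used here.

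Genes with enough reads (filterByExpr) were fitted with edgeR 4.0.16 in R 4.3.3 by its quasi-likelihood test with TMM factors, 6 group means and robust dispersion. P-values were adjusted by Benjamini-Hochberg over all genes tested. A standard error is the log2 fold change divided by the square root of F. The fits were tested on simulated data. A gene shared sequence where at least 10% of its 30-base words occurred in another GENCODE gene of an older build, and exon overlap is given from 20%.

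Genes were named by class among those with at least 3 log2 CPM on average, 20 reads per medium and a call of the same sign in each clone. The 6 highest and 6 lowest interactions were taken for reversing genes, 5 and 5 for genes called in 1 medium, and 4 and 4 for the same direction, and up to 3 members of each list by adjusted p. A gene that this rule names is not reported here. Other genes were chosen after their values were seen, among them Atf4, Aldh18a1, Shmt2, Mthfd2, Gars, Ddit4, Chac1, Gldc, Tbx3, H19, Plagl1, Lef1, Otx2, Fgf4, Dppa3, Pou5f1, Gpx1, Ccnd1, Bmp4, Cdkn1a, Elovl5, Rhox6, Lefty2 and Fasn. The gene lists and the comparison were chosen with earlier results of these data known. Alternatives were other scaling factors, count filters, DESeq2 1.42.0, equal depth, a replicate block, each clone alone, both clones as 1 group, and leaving out each library. The analyses of genes with little shared sequence and of reversal in each clone alone were added after the data were seen.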

Additional observations from a re-analysis of the deposited data

Results flagged for a closer look

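The mean effect of the clones differed between the media for 3638 genes, by the test of the interaction itself in edgeR. A difference between the clones in that interaction was called for 80 genes. Among the genes described, the interaction of clone 2 minus that of clone 1 was 4.11 log2 for Plagl1, 0.83 for Cryab, 0.55 for Igf2 and 0.33 for the keratin gene Krt8. It was 0.31 for Slc2a3, a glucose transporter, 0.30 for Scd2, a fatty acid desaturase, and 0.24 for Pim1, a kinase induced by LIF. It was -0.56 for Spry4, -0.39 for Etv4 and -0.24 for Esrrb, whose positive interactions were thus larger in clone 1. Pim1 and Scd2 had negative interactions, which were also larger in size in clone 1. Pim1 was at -0.50 ± 0.05 in clone 1 and -0.26 ± 0.05 in clone 2. The adjusted p of these 10 genes ran from 1.71e-29 for Plagl1 to 0.0392 for Krt8 by edgeR's quasi-likelihood test. In all of them except Plagl1 both clones had the same sign, and Scd2 was at -0.39 ± 0.04 in clone 1 and -0.09 ± 0.04 in clone 2. Which of these differences belong to the clones as lines was not tested, since each is 1 clone.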

How the results depend on the processing

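Of the 143 named genes that were called, none changed direction under 24 alternatives. Direction was not compared for other genes or for fits of each clone alone. Zscan4a, a two-cell-state gene with no call, ran from -1.11 to 0.83. The interaction was called for 3600 genes with RLE factors, 3212 without a count filter, 3671 with a filter of 1 CPM, 2999 with DESeq2, 3090 at equal depth, 3060 with both clones as 1 group, 2896 with clone 1 alone, 2761 with clone 2 alone and 3235 among genes under 10% shared words. Of the calls 551 higher and 500 lower, 1051 in all, were at least 1.5-fold. Leaving out 1 library gave 2542 to 3509 genes called, 1179 to 1706 higher, 1356 to 1924 lower (1371 higher and 1356 lower without the second SL2i chr8A library, against 1641 and 1997), 361 to 470 reversing, 1149 to 1883 called in SL2i only, 570 to 733 in SL only and 254 to 367 in the same direction. Reversing genes numbered 345 with both clones as 1 group, 343 at equal depth, 371 with DESeq2 and 403 without a count filter, against 504 as reported. Same-direction genes numbered 240 with both clones as 1 group and 227 at equal depth, and genes reversing in each clone alone 145. The 80 genes that differed between the clones became 28 to 107 when 1 library was left out, with 28 without the first SL2i clone 1 library, 47 without the second or without the third SL clone 2 library, and 53 without the first SL clone 1 library.

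The deviations of same-numbered libraries had correlations of -0.0855 to 0.0938 over 15 pairs within a medium and -0.0358 to 0.0360 over 18 pairs across media. None passed 0.1, so the numbers were not taken as pairing. Each SL2i group had 2 libraries, so replicates 1 and 2 gave the same correlation there and were not separate checks. With a replicate block 3810 genes were called, 544 reversing, and 130 differed between the clones. With a block within each medium these were 3895, 572 and 191.

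Of 150 named genes under 24 alternatives, 3536 of 3570 values kept their side of the threshold, 34 lost the call, and 121 of 143 called genes were called under all. Causes were not tested. With 2 libraries per group and a median of 10541098 reads in SL2i, the median standard error was 0.122 there, against 0.0692 in SL.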

Other observations

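Genes of the actin cytoskeleton that serum response factor drives were called higher in 9 and lower in 3 of 22 tested (40.9% and 13.6%, against 9.55% and 11.6% over all genes). Whether the share of any list here differed from these 9.55% and 11.6% was not tested. Endoderm genes were called higher in 5 (29.4%) and lower in 2 (11.8%) of 17 tested, and 3 of the 17 reversed, against 2.93% of all genes. Polycomb subunits were called higher in 5 (22.7%) and lower in 1 (4.55%) of 22 tested. Cholesterol genes were called in both directions, 5 higher and 6 lower of 26, although 16 were called lower in the clones in SL and 13 in SL2i, where 12.6% and 14% of all genes were. Lysosomal genes were called 6 higher and 5 lower of 28 (21.4% and 17.9%). G1 regulators of the cell cycle were called 4 higher and 7 lower of 25 (16% and 28%). Interferon genes were called 2 higher and 4 lower of 21 (9.52% and 19%), and hypoxia targets 3 and 5 of 21 (14.3% and 23.8%). In the TCA cycle list 6 were higher and 8 lower of 26 (23.1% and 30.8%). In the NADH and NAD list these were 3 and 4 of 25 (12% and 16%). Targets of LIF and STAT3 were called 2 higher and 2 lower of 13 (15.4% each), and BMP signals and Id genes 4 and 1 of 14 (28.6% and 7.14%). Neuroectoderm genes were called 3 higher and 1 lower of 16 (18.8% and 6.25%), and primitive streak genes 1 and 0 of 14 (7.14% and 0%).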
